A study of Homo sapiens with 8 samples.

Results

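Expression of 9 genes of blood coagulation and plasminogen activation was followed in human melanoma cells with and without added JMJD3: the clotting initiator F3, the clotting inhibitor TFPI and its relative TFPI2, the protein C cofactor and receptor THBD and PROCR, the plasminogen activators PLAT and PLAU, the receptor PLAUR, and the protease inhibitor SERPINE2. The genes were chosen by symbol, with earlier results of these data known. Every probe that the array annotation gives to one of these symbols was used, 14 of 47323 probes for 9 of 20046 named genes. Of these, 13 probes of 8 genes passed the filter on dim probes. THBD, with 1 probe, did not pass. A375-LM3 is a derivative of A375, an established human melanoma line, and JMJD3 is the histone H3K27 demethylase encoded by KDM6B. The 8 arrays formed 4 groups of 2: cultured A375-LM3 expressing vector, cultured A375-LM3 expressing JMJD3 (WT in the titles), and cells expressing vector or JMJD3 that had been isolated from a primary tumor formed by A375-LM3. The cultured cells had been grown for 1 day in DMEM with 10% serum, and the tumor-dissociated cells for 3 passages, so growth in a tumor, dissociation and time in culture differed together and cannot be told apart. The labels do not give the host, the number of tumors, or whether both arrays of a group stem from different cultures or tumors. The p-values therefore measure array-to-array spread, which may be technical. RNA was measured on Illumina HumanHT-12 V4 BeadChips, where each probe gives 1 intensity.

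Coagulation starts when F3, tissue factor, binds its plasma protease on a cell surface; TFPI blocks that complex, and the protein C system, in which THBD and PROCR act on the cell surface, shuts the cascade down further along. In fibrinolysis and in the breakdown of matrix around tumor cells, the proteases PLAT and PLAU convert plasminogen to plasmin, PLAUR holds PLAU at the cell membrane, and inhibitors such as SERPINE2 and TFPI2 act on these proteases or on plasmin. Both systems are known from melanoma cells, which can expose tissue factor and secrete plasminogen activators.

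RefSeq start-site windows of GRCh38.p14 were matched by symbol for 7 of the 9 genes, 9 windows in all. The 250 bases before the start site are printed 5′ to 3′ on the gene's strand for TFPI, TFPI2 and PROCR, the 3 genes with a change that passed the test, and for F3, which had none. Capitals mark TGANTCA, the AP-1 motif, and GGGCGG, the GC box, searched on both strands; no AP-1 match overlapped a GC box match in these windows. The windows are chr2:187554436-187554685 on the minus strand for TFPI, chr7:93890754-93891003 on the minus strand for TFPI2, chr20:35171822-35172071 on the plus strand for PROCR and chr1:94541760-94542009 on the minus strand for F3.
TFPI: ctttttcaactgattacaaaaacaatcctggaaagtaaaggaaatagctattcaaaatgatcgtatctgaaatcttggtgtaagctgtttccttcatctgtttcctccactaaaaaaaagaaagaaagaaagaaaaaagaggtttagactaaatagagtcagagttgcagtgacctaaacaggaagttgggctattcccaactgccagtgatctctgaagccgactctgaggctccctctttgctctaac
TFPI2: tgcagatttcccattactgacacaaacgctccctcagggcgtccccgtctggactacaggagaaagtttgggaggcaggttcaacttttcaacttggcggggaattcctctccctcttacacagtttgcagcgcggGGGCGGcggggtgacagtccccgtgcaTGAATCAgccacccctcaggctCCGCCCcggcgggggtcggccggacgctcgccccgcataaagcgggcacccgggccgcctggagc
PROCR: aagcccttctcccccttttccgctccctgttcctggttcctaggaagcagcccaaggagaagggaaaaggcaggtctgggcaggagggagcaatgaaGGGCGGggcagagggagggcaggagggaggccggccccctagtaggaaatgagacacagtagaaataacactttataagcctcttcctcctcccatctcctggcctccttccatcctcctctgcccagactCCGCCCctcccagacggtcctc
F3: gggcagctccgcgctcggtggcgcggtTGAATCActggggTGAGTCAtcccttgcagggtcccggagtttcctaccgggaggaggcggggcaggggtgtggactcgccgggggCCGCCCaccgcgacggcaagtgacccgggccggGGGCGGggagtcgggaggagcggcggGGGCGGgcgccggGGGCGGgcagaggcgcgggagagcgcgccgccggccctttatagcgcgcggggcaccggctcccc
Of these 4 windows that of TFPI was the poorest in CpG, with 2 CpG sites, no match to either motif and a GC content of 38.4%. The TFPI2 window holds 20 CpG sites, 1 AP-1 match that starts 87 bases before the start site and 2 GC boxes. PROCR has 5 CpG sites and 2 GC boxes, and F3 has 34 CpG sites, 2 AP-1 matches and 4 GC boxes. Among 35116 such windows the median was 11 CpG sites, 6.57% held an AP-1 match and 42.6% a GC box. These matches are letters in a window and were not measured as binding.

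An intensity over 161.4 counted as above background, which held for 19913 to 19923 probes per array. Replicate arrays agreed across genes with r between 0.981 and 0.993. On the second principal component, tumor-dissociated vector replicate 2 and tumor-dissociated JMJD3 replicate 1 were farthest from each other, and the calls that change without them are given so. The single KDM6B probe stayed between 140.6 and 161.7 on the 8 arrays, above background on 1, and the sources used here do not say whether it reads the introduced sequence. Of the melanocyte markers, MITF and SOX10 were above background on all 8 arrays, while MLANA, TYR and S100B were above it on none. The 8 melanocyte markers on the array summed to between 3074 and 4206 in the cultured and to between 1407 and 3395 in the tumor-dissociated groups. This sum follows mainly SOX10, which ranged from 231 to 3096 over the arrays. MITF ranged from 249 to 371, and PMEL, MLANA, TYR, TYRP1, PAX3 and S100B reached at most 170. Because THBD, PROCR, TFPI and PLAT are also made by endothelium, endothelial markers were read on the same arrays: 7 of 10 (CDH5, VWF, KDR, TIE1, ERG, EMCN and CLDN5) were never above background. Their summed intensity lay between 1422 and 1457 over all arrays, where 10 probes at the background mode would give 1397. The 8 fibroblast markers summed to between 1372 and 1542 in the cultured groups and to between 2413 and 3917 in the tumor-dissociated groups, and 7 of the 8 were above background on at least 2 arrays, with THY1 above it on none. PDGFRB and LUM were above it on all 8 arrays, those of the cultured line included. PDGFRB had the widest range over the arrays, from 208 to 2000, so the fibroblast sum can rest largely on this gene. PDGFRA ranged from 147 to 672, COL1A2 from 138 to 517 and COL1A1 from 148 to 421. LUM ranged from 256 to 413, DCN from 161 to 262 and FAP from 135 to 222. Bulk RNA cannot tell fewer cells of a type from less RNA per cell.

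The changes that passed were in the inhibitors TFPI and TFPI2 and in PROCR, and none was in F3 or in a plasminogen activator. In cultured cells 1 of 8 tested genes passed for JMJD3 against vector, TFPI, which was higher; over all 12415 genes 0.0886% passed. In tumor-dissociated cells 1 of 8 passed, TFPI2, higher with JMJD3, against 0.822% of all genes. Between origins, 2 of 8 passed in vector cells, TFPI and PROCR, both higher after tumor growth, against 10.1% of all genes, and 1 of 8 in JMJD3 cells, TFPI, against 5.96%. With limma, 0 of 8 passed for the difference of the JMJD3 effect between origins, against 0.105% of all genes, and 1, TFPI, had an unadjusted p under 0.05, as had 6.88% of all genes. A gene passed when its adjusted p (limma, Benjamini-Hochberg over all genes) was under 0.05. Because the genes were chosen with earlier results of these data known, the shares beside those of all genes are no test of the group. The arrays of the groups did not overlap for 4 of the 8 genes with JMJD3 in culture and 4 in tumor-dissociated cells, where 36.2% and 38.6% of all genes were so separated. Between origins 6 genes were separated in vector cells and 4 in JMJD3 cells, against 57.5% and 55.6%. The median log2 difference over the 8 genes was 0.31, 0.24, -0.092 and 0.28 in these 4 comparisons in that order, and between -0.026 and -0.0011 over all genes. The JMJD3 comparison in culture and the origin comparison in vector cells share the cultured vector arrays, so a low value there enters both; the comparisons that meet in any other group share its arrays likewise.

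**Figure D1:**
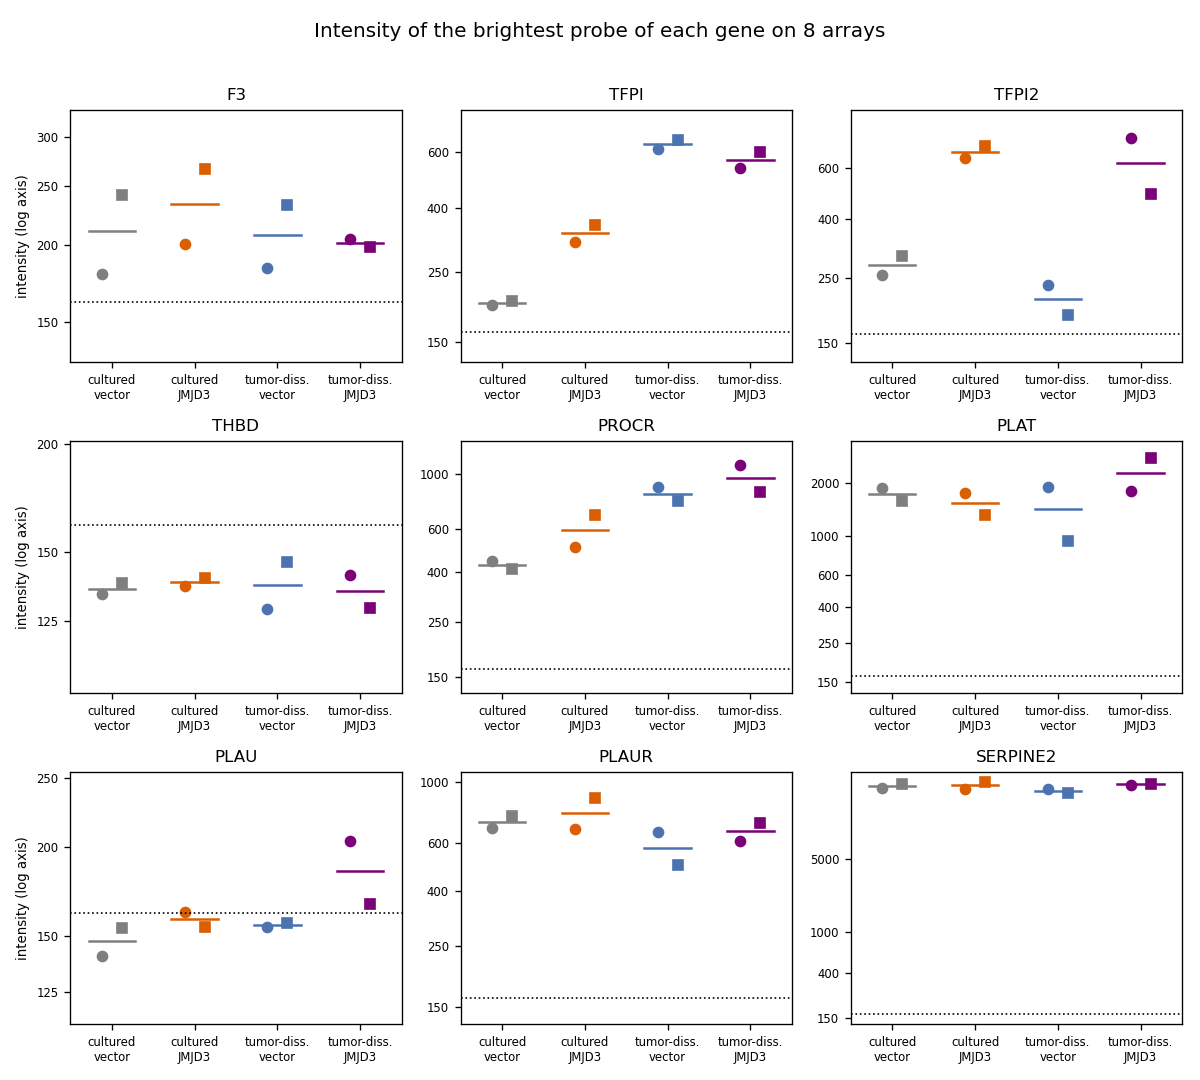
Intensity of the brightest probe of each of the 9 genes (log axis) on the 8 arrays, with circles for replicate 1, squares for replicate 2, a line at the mean of each group of 2, and a dotted line at the background level of 161.4. TFPI is lowest in cultured vector cells, TFPI2 is high on the 4 JMJD3 arrays, PROCR is higher on the tumor-dissociated arrays, and THBD lies under the background level on all 8.

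**Figure D2:**
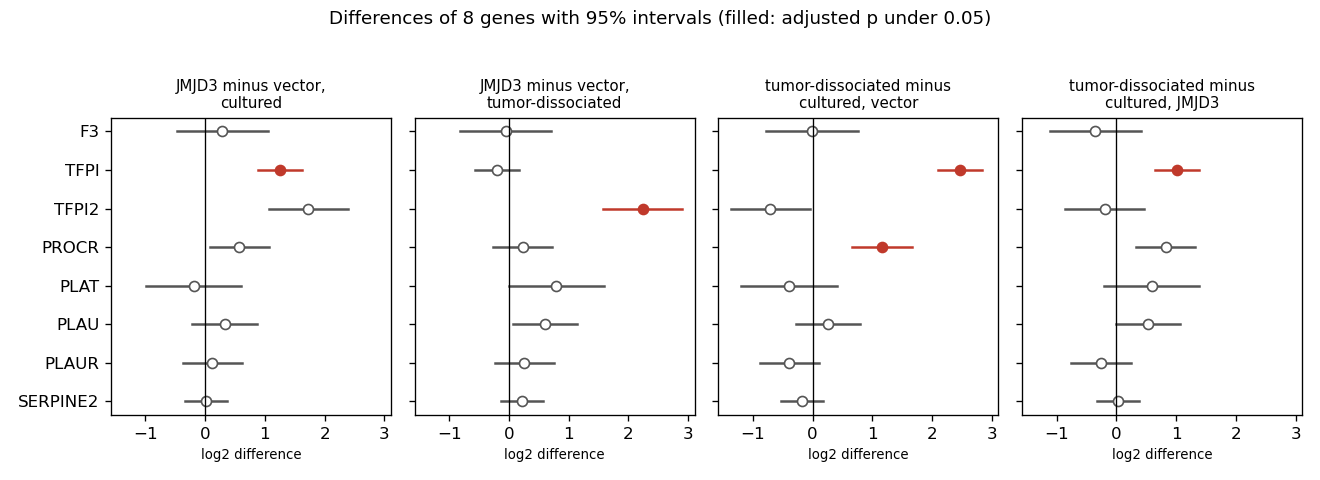
Log2 differences of the 8 tested genes (points) with limma's 95% intervals (lines) in 4 comparisons; filled red points have an adjusted p under 0.05. The filled points are TFPI in 3 comparisons, TFPI2 in 1 and PROCR in 1.

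TFPI encodes the Kunitz-type inhibitor that blocks the tissue factor complex. Its brightest probe, ILMN_1707124, measured 196 and 202 in cultured vector cells, 312 and 352 in cultured JMJD3 cells, 616 and 656 in tumor-dissociated vector cells, and 536 and 599 in tumor-dissociated JMJD3 cells. Cultured vector arrays were lowest, cultured JMJD3 arrays intermediate without overlap, and the 2 tumor-dissociated groups were highest, with vector above JMJD3 and neither overlapping a cultured group. With JMJD3 in culture TFPI rose by a log2 change of 1.24 ± 0.16 (SE, limma adjusted p = 0.0379, both JMJD3 arrays above both vector arrays), a fold of 2.37 on the background-corrected scale. From culture to tumor-dissociated cells it rose by 2.47 ± 0.16 in vector cells (limma adjusted p = 4.73e-05, 5.52-fold) and by 1.02 ± 0.16 in JMJD3 cells (limma adjusted p = 0.0131, 2.03-fold). With JMJD3 in tumor-dissociated cells the log2 difference was -0.20, with a 95% interval of -0.57 to 0.17. The JMJD3 effect in tumor-dissociated cells minus that in cultured cells was -1.45 ± 0.23 on the log2 scale (95% interval -1.97 to -0.92), which did not pass (limma adjusted p = 0.0798, unadjusted p = 0.000141). The summed fibroblast markers were higher in the same tumor-dissociated groups as TFPI, and the summed endothelial markers were near the background sum in all 4 groups. The part of either cell type in the origin difference was not tested.

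The TFPI call with JMJD3 in culture depended on the arrays and settings used. It did not pass without cultured vector replicate 1 (limma adjusted p = 0.511) or replicate 2 (0.333), without cultured JMJD3 replicate 1 (0.178) or replicate 2 (0.466), or without either tumor-dissociated vector array (0.0668 each), and the log2 change stayed between 1.12 and 1.37. Without background correction TFPI differed by 0.74 with JMJD3 in culture (limma adjusted p = 0.182). Between origins in vector cells the lowest log2 change of TFPI under any alternative was 1.68, so its fold depends on the processing too. The call between origins in JMJD3 cells did not pass without cultured JMJD3 replicate 1 (0.0833) or replicate 2 (0.0856). The difference of effects passed without tumor-dissociated JMJD3 replicate 2 (limma adjusted p = 0.0465).

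In the 2 other TFPI probes too, cultured vector cells were lowest, cultured JMJD3 cells next and tumor-dissociated cells highest, but there the mean of the tumor-dissociated JMJD3 arrays was slightly above that of the vector arrays. ILMN_1662619 measured 187 and 198 in cultured vector, 284 and 292 in cultured JMJD3, 488 and 509 in tumor-dissociated vector and 472 and 545 in tumor-dissociated JMJD3 cells. In the fit over all 22287 probes above background, its log2 difference was 1.05 ± 0.17 with JMJD3 in culture (limma adjusted p = 0.116), and it rose by 2.14 and 1.13 between origins in vector and JMJD3 cells (limma adjusted p = 7.57e-05 and 0.00934). In that same fit ILMN_1707124 had an adjusted p of 0.0508 with JMJD3 in culture, just outside the threshold. ILMN_1701032, which the annotation assigns to another TFPI transcript, was not above background on any cultured array, at 135 on both vector arrays and at 159 and 151 with JMJD3. It measured 169 and 170 in tumor-dissociated vector and 169 and 181 in tumor-dissociated JMJD3 cells. Its deposited intensity was at least 1.05-fold higher in tumor-dissociated than in cultured vector cells. For this bound, as for the later ones, the dim group was raised to the lowest level above background. On the background-corrected scale this difference passed (limma adjusted p = 0.0052). The origin difference of this probe in JMJD3 cells did not pass (limma adjusted p = 0.139). The probe met the filter on dim probes only through the tumor-dissociated arrays, so its p-values add no support to the origin difference.

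**Figure D3:**
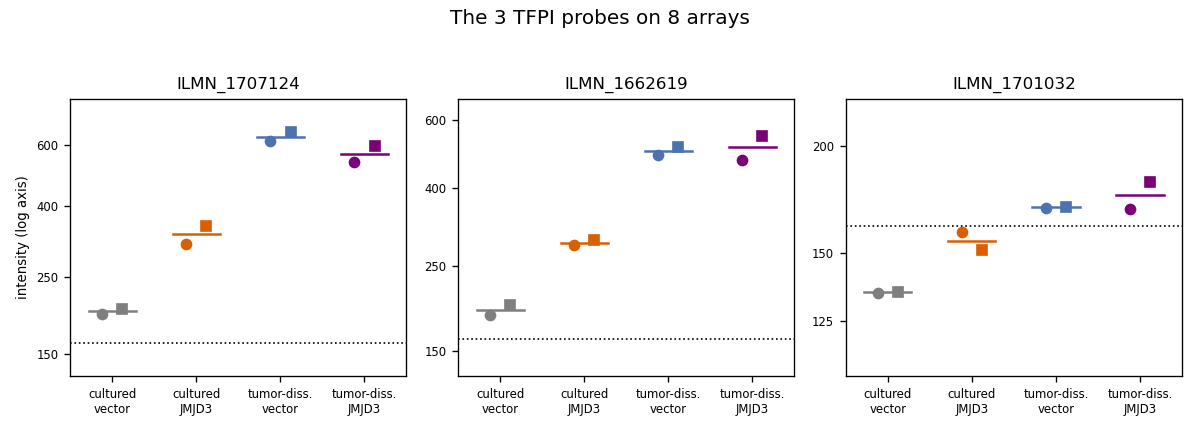
Intensity of the 3 TFPI probes (log axis) on the 8 arrays, with circles for replicate 1, squares for replicate 2, a line at each group mean and a dotted line at the background level. In all 3 probes the cultured vector arrays are lowest and the 4 tumor-dissociated arrays are highest. ILMN_1701032 met the filter on dim probes only through these 4 arrays.

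TFPI2 encodes a second Kunitz-type inhibitor, found in the extracellular matrix, that acts on plasmin. Its probe measured 257 and 298 in cultured vector cells against 647 and 710 in cultured JMJD3 cells. In tumor-dissociated cells it measured 237 and 187 with vector against 759 and 487 with JMJD3. All 4 JMJD3 arrays lay above all 4 vector arrays, and the widest spread within a group was between the 2 tumor-dissociated JMJD3 arrays. TFPI2 rose with JMJD3 in tumor-dissociated cells by 2.24 ± 0.29 (SE, limma adjusted p = 0.0130, 2 of 2 arrays higher), a fold of 4.72. In culture the log2 difference was 1.73 ± 0.29 (95% interval 1.07 to 2.38), which did not pass over all genes (limma adjusted p = 0.125). The difference between these effects was 0.51 ± 0.41 (limma adjusted p = 0.891, 95% interval -0.42 to 1.44). Between origins TFPI2 had a log2 difference of -0.71 in vector cells (limma adjusted p = 0.164) and of -0.19 in JMJD3 cells (limma adjusted p = 0.715).

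Whether TFPI2 passed depended on the arrays in the fit. In culture it passed when either tumor-dissociated JMJD3 array was left out (limma adjusted p = 0.0271 each), and in a fit of the cultured arrays alone (limma adjusted p = 0.00545). In tumor-dissociated cells it did not pass without tumor-dissociated vector replicate 2 (log2 difference 1.90, limma adjusted p = 0.0915), in a fit of those groups alone (limma adjusted p = 0.0974), or without both arrays that lay farthest apart (1.52, limma adjusted p = 0.0712).

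PROCR encodes the protein C receptor, which presents protein C to the thrombin and thrombomodulin complex. Its probe measured 444 and 413 in cultured vector, 506 and 682 in cultured JMJD3, 889 and 779 in tumor-dissociated vector and 1092 and 842 in tumor-dissociated JMJD3 cells. The 4 tumor-dissociated arrays lay above the 4 cultured arrays, and the 2 tumor-dissociated groups overlapped. PROCR rose between origins in vector cells by 1.16 ± 0.22 (SE, limma adjusted p = 0.0119, 2 of 2 arrays higher), a fold of 2.24. In JMJD3 cells the log2 difference of 0.82 ± 0.22 did not pass (limma adjusted p = 0.0621), and it passed without tumor-dissociated JMJD3 replicate 2 (limma adjusted p = 0.0342) and with a normexp offset of 50 (limma adjusted p = 0.0477). With JMJD3 the log2 difference was 0.57 in culture (95% interval 0.073 to 1.06, limma adjusted p = 1.00) and 0.23 in tumor-dissociated cells (95% interval -0.27 to 0.73). The call in vector cells did not pass without cultured vector replicate 1 (limma adjusted p = 0.0558) or replicate 2 (0.102), or without tumor-dissociated vector replicate 1 (0.0589). As for TFPI, the summed fibroblast markers were higher in the tumor-dissociated groups, and their part in the PROCR difference was not tested. THBD encodes thrombomodulin, the partner of thrombin in this step. It measured between 129 and 146 on the 8 arrays, above background on none, so no level or fold is given.

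F3, tissue factor, stayed close to background. Its brighter probe, ILMN_2129572, measured 180 and 241 in cultured vector, 201 and 266 in cultured JMJD3, 184 and 232 in tumor-dissociated vector and 205 and 199 in tumor-dissociated JMJD3 cells. The arrays of the groups overlapped in all 4 comparisons, and none passed. The 95% intervals ran from -0.47 to 1.05 with JMJD3 in culture and from -0.81 to 0.71 in tumor-dissociated cells, so changes within these limits are not excluded. Between origins they ran from -0.77 to 0.75 in vector cells and from -1.11 to 0.41 in JMJD3 cells. The other F3 probe, ILMN_1797009, measured between 164 and 212 on the 8 arrays and did not pass in any comparison.

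Of the plasminogen activators, PLAT, the tissue-type enzyme, was well above background and varied within groups. It measured 1883 and 1583 in cultured vector, 1752 and 1321 in cultured JMJD3, 1913 and 943 in tumor-dissociated vector and 1809 and 2781 in tumor-dissociated JMJD3 cells. The low value was replicate 2 of the tumor-dissociated vector cells, the tumor-dissociated JMJD3 arrays lay above the cultured JMJD3 arrays, and the other groups compared overlapped. With JMJD3 in tumor-dissociated cells the log2 difference of PLAT was 0.79 ± 0.35 (limma adjusted p = 0.367, 95% interval -0.0046 to 1.59), and it was 0.24 without that array and 1.35 without tumor-dissociated vector replicate 1. In culture it was -0.20 (95% interval -0.99 to 0.60).

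PLAU, the urokinase-type enzyme, was near background, above it on 3 of 8 arrays. All 3 were JMJD3 arrays, so PLAU met the filter on dim probes only through JMJD3 cells. Its p-values therefore add no support to a difference. It measured 141 and 154 in cultured vector, 162 and 154 in cultured JMJD3, 154 and 156 in tumor-dissociated vector and 204 and 166 in tumor-dissociated JMJD3 cells. The 2 tumor-dissociated JMJD3 arrays were the highest, above the other 6. In tumor-dissociated cells, where both vector arrays were under background, the mean deposited intensity of PLAU with JMJD3 was at least 1.14-fold higher. This bound takes no account of the spread between arrays, and on the background-corrected scale the difference did not pass (limma adjusted p = 0.317). Between origins in JMJD3 cells its log2 difference was 0.53 (95% interval -0.0091 to 1.07, limma adjusted p = 0.208), and of 17 alternatives it passed in 1, without tumor-dissociated JMJD3 replicate 2 (0.87, limma adjusted p = 0.0442).

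PLAUR, the urokinase receptor, had 3 probes, all above background on all 8 arrays. ILMN_2374340 measured 680 and 750 in cultured vector, 675 and 872 in cultured JMJD3, 654 and 495 in tumor-dissociated vector and 610 and 710 in tumor-dissociated JMJD3 cells. Vector and JMJD3 arrays overlapped in both origins, and the tumor-dissociated vector arrays lay below the cultured vector arrays. Its log2 difference was -0.39 between origins in vector cells (95% interval -0.89 to 0.10, limma adjusted p = 0.302) and 0.12 with JMJD3 in culture (95% interval -0.38 to 0.61). With JMJD3 in tumor-dissociated cells the 3 probes disagreed in sign, at 0.26, 0.046 and -0.41, and none passed.

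SERPINE2, also called protease nexin 1, inhibits thrombin and plasminogen activators. Its probe measured 24328 and 26110 in cultured vector, 23681 and 27425 in cultured JMJD3, 23440 and 21339 in tumor-dissociated vector and 25915 and 26232 in tumor-dissociated JMJD3 cells. The tumor-dissociated vector arrays were the lowest of the 8. Its values spanned 1.29-fold, the narrowest range among the genes above background on all arrays by their brightest probe. The 95% intervals of its log2 difference ran from -0.33 to 0.37 with JMJD3 in culture and from -0.13 to 0.57 in tumor-dissociated cells. The highest intensity on any array was 31938, and whether probes this bright still respond in proportion was not tested.

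Other genes of the pathway were taken from a list of 53 proteases, receptors, cofactors and inhibitors. This list too was chosen with earlier results of these data known, so its counts beside the shares of all genes are no test of it. The annotation named 49 of them, of which 26 were not above background on 2 arrays, and 23 were tested. F2RL1 was not analysed here. With JMJD3 in culture 0 of 23 passed in limma, against 0.0886% of all genes, with 1 at an unadjusted p under 0.05, against 4.34%. In tumor-dissociated cells 3 of 23 passed, all lower with JMJD3, where 0.451% of all genes were lower. Between origins 6 of 23 were higher in vector cells, against 6.15% of all genes, and 1 of 23 in JMJD3 cells, against 3.76%. FGB is among the 3 and among the 6, and it met the filter on dim probes only through the tumor-dissociated vector arrays. For the difference of effects 0 of 23 passed in limma, against 0.105% of all genes, with 3 at an unadjusted p under 0.05, against 6.88%. The list's median log2 difference was -0.038, 0.018, 9.0e-05, 0.065 and -0.058 in these 5 comparisons in that order, beside -0.0093, -0.0011, -0.026, -0.012 and 0.0054 over all genes.

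F2RL2 encodes protease-activated receptor 3, which thrombin cleaves. It measured 172 and 181 in cultured vector, 175 and 191 in cultured JMJD3, 530 and 815 in tumor-dissociated vector and 291 and 341 in tumor-dissociated JMJD3 cells, and the tumor-dissociated arrays lay above the cultured ones. It rose between origins by 2.90 ± 0.25 in vector cells (limma adjusted p = 0.000199) and by 1.40 ± 0.25 in JMJD3 cells (limma adjusted p = 0.0186). F2RL2 fell with JMJD3 in tumor-dissociated cells, by a log2 change of -1.38 ± 0.25 (limma adjusted p = 0.0448). SERPINI1, neuroserpin, an inhibitor of tissue-type plasminogen activator, measured 259 and 353 in tumor-dissociated vector cells and between 163 and 183 on the other 6 arrays. It rose between origins in vector cells by 1.42 ± 0.23 (limma adjusted p = 0.00624), and it fell with JMJD3 in tumor-dissociated cells by 1.54 ± 0.23 (limma adjusted p = 0.0219). FGB, the fibrinogen beta chain, was above background only on the 2 tumor-dissociated vector arrays, at 244 and 193. Its mean deposited intensity was 219 ± 36.1 (SD, n = 2) there, 144 ± 2.15 in cultured vector and 150 ± 4.44 in tumor-dissociated JMJD3 cells, which makes it at least 1.35-fold higher than in either. On the background-corrected scale the first difference passed with a limma adjusted p of 0.00352 and the second with 0.0366. FGB met the filter on dim probes only through these tumor-dissociated vector arrays, so its p-values are no separate support for either difference. The falls with JMJD3 held in a part of the alternatives, for F2RL2 in 8 of 18, for SERPINI1 in 11 of 18 and for FGB in 6 of 17. Without both arrays farthest apart the log2 difference was -0.84 for F2RL2 (limma adjusted p = 0.276) and -1.03 for SERPINI1 (limma adjusted p = 0.156), and without background correction it was -0.53 for FGB (limma adjusted p = 0.120).

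The other 3 genes that rose between origins in vector cells were F12, which starts the contact pathway, PROS1, the protein S cofactor, and F8, the clotting cofactor. F12 rose by 1.07 ± 0.24 (limma adjusted p = 0.0242) and PROS1 by 0.97 ± 0.22 (limma adjusted p = 0.0252). The deposited intensity of F8, under background in cultured vector cells, was at least 1.14-fold higher. The F8 difference passed on the background-corrected scale (limma adjusted p = 0.0270). The F8 call was lost in 9 of 17 alternatives, each array of either group left out among them, and its log2 difference without background correction was 0.24 (limma adjusted p = 0.122). The PROS1 call was lost in 5 of 18, when any array of its 2 groups was left out (limma adjusted p between 0.0701 and 0.148) and without both arrays farthest apart (limma adjusted p = 0.0594). F12 did not pass without cultured vector replicate 1 or 2 (limma adjusted p = 0.112 and 0.135), and its log2 change was 0.66 without tumor-dissociated vector replicate 1 (limma adjusted p = 0.0661). F2R, the main thrombin receptor, and ANXA2 and S100A10, which together bind plasminogen at the cell surface, did not pass in any comparison. F2R had means of 24676 ± 648 (SD, n = 2) in cultured vector and 24676 ± 492 in tumor-dissociated vector cells. S100A10 differed by 0.37 ± 0.16 with JMJD3 in tumor-dissociated cells (limma adjusted p = 0.348), and ANXA2 by -0.21 ± 0.19 (limma adjusted p = 0.721). The 3 falls with JMJD3 were not all called without 1 array: it was 1 call when either cultured vector array was left out, 0 when either cultured JMJD3 array was, 1 for tumor-dissociated vector replicate 2, and 0 for tumor-dissociated JMJD3 replicate 1. The count of 6 rises was 3 without cultured vector replicate 1 or tumor-dissociated vector replicate 1 and 2 without cultured vector replicate 2. In JMJD3 cells the count was 0 without either cultured JMJD3 array and 2 without either tumor-dissociated vector array. The difference of effects passed for 2 genes without tumor-dissociated vector replicate 1. The summed fibroblast markers were higher in both tumor-dissociated groups than in culture, and their part in these rises was not tested.

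**Figure D4:**
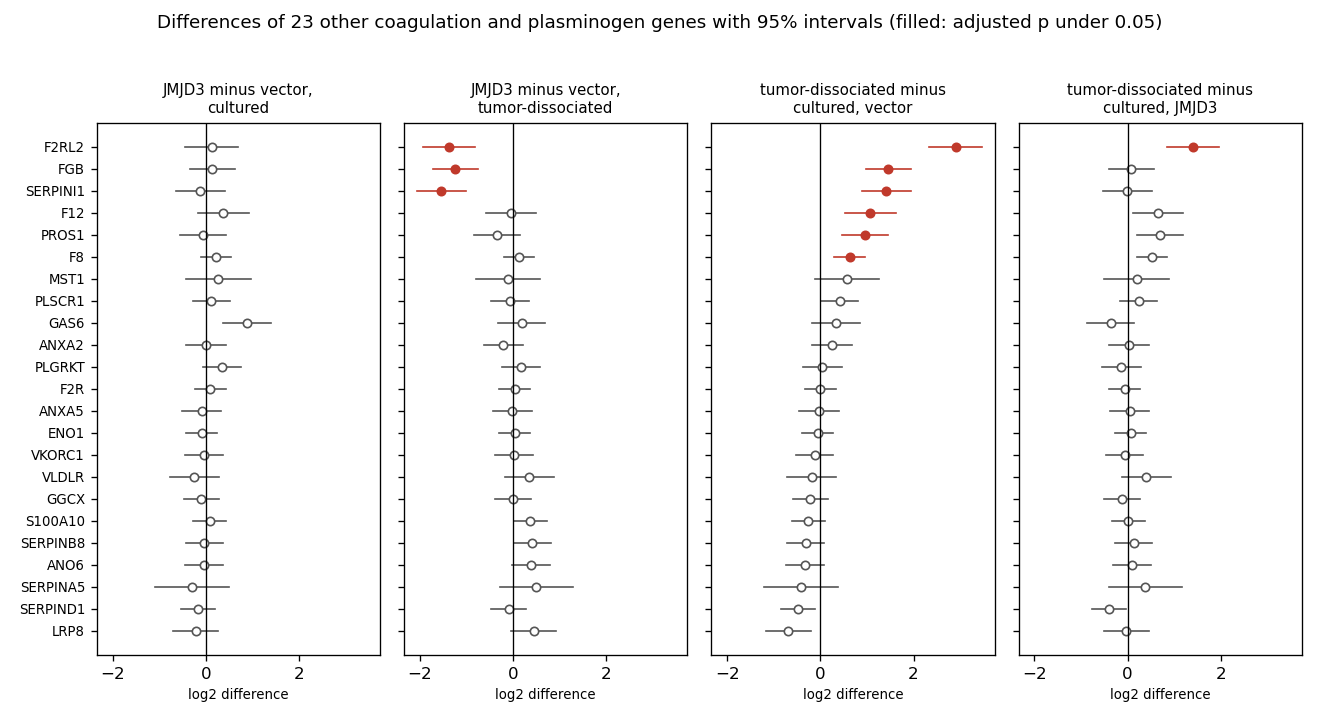
Log2 differences of the 23 other coagulation and plasminogen genes (points) with limma's 95% intervals (lines) in 4 comparisons, ordered by the origin difference in vector cells; filled red points have an adjusted p under 0.05. F2RL2, FGB and SERPINI1 are higher between origins in vector cells and lower with JMJD3 in tumor-dissociated cells, 2 comparisons that share the tumor-dissociated vector arrays. FGB met the filter on dim probes only through those arrays.

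The genes most like each member were read as a description from the Pearson correlation of log2 intensities over the 8 arrays, among 1257 tested genes with an SD of at least 0.5; the points share groups and arrays, and many genes that differ between the same groups reach similar values. TFPI was most like PDGFC (r = 0.99), TMSB4X (0.98) and EEF1A2 (0.98). TFPI2 was most like TSC22D1 (0.98), SPRR2D (0.97) and PLXNA2 (0.96), and PROCR like RRAS (0.98), CHST7 (0.97) and PPP3CA-DT (0.97). PLAT was most like ITGB3 (0.95), SERPINA3 (0.91) and FCRLA (0.88), and PLAU like SERPINB3 (0.99), PDE8B (0.98) and SPANXD (0.97). The nearest genes were LINC02915 (0.91), UPP1 (0.89) and E2F2 (0.88) for PLAUR, CCN1 (0.86), MGLL (0.84) and MYLK (0.84) for SERPINE2, and TMEM244 (0.72), SERPINB7 (0.71) and GDA (0.70) for F3. Among the 8 members themselves TFPI and PROCR were most alike (r = 0.92 over 8 arrays), while TFPI and TFPI2 had r = 0.0060.

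**Figure D5:**
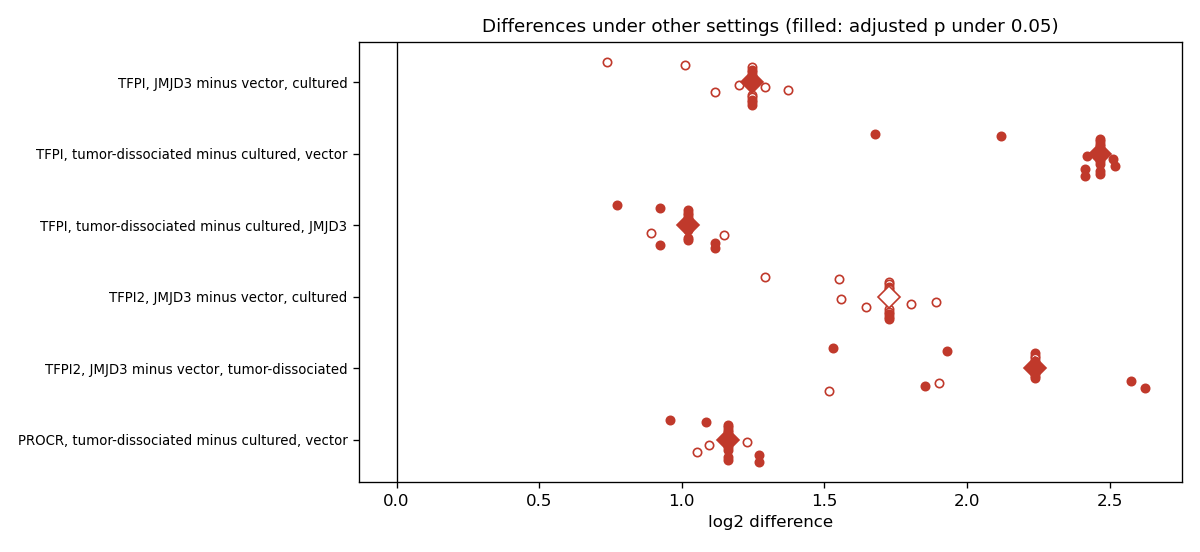
Log2 differences of TFPI, TFPI2 and PROCR as reported (diamonds) and under the 18 other settings (circles), with filled symbols where the adjusted p was under 0.05. The 3 differences with JMJD3 and the 3 between origins that are drawn lie above 0 under every setting, and the points are open for TFPI with JMJD3 in culture under 10 of the 18 settings. The arrays of the groups compared did not overlap in any of them, so leaving out arrays could not turn the sign.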

How the data were processed

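RNA was amplified with an Illumina TotalPrep kit and labelled with biotin, per the series' design text. The deposited intensity values, made in GenomeStudio (framework 2011.1, Gene Expression module 1.9.0, per the series' design text), are linear and share 1 distribution: sorted log2 columns differed by at most 0.0057. How the authors normalized them was not given in the sources used here. The non-normalized signals and detection p-values were left aside, because their 16 columns match no sample label. A probe was above background over 161.4, the one-sided 0.01 point of a distribution with its mode at 139.7. Background was corrected with normexp (offset 16) and values were taken to log2. Probes above background on at least 2 of 8 arrays were kept, 22287 probes naming 12415 genes, each read from its probe with the highest mean. Differences were tested in limma 3.58.1 (lmFit, eBayes; R 4.3.3), with 4 group means over all 8 arrays, 4 residual and 5.11 prior degrees of freedom. An exact permutation test of 2 arrays against 2 cannot give a p below 0.333. Named genes are the 9 members, called genes of the wider list with F2R, F2RL1, ANXA2 and S100A10, and the 3 most correlated genes per member. Where a group was under background, its arrays were raised to the lowest level above background on the same array, and the bound was taken on the deposited intensities; other folds are on the background-corrected scale. The number of arrays limits the precision. The script was tested on simulated data. Members and lists were chosen with earlier results of these data known. Of 18 alternatives, 1 (without both arrays farthest apart) was chosen after seeing the data, as were the alternatives for the wider list.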

Additional observations from a re-analysis of the deposited data

How the results depend on the processing

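The 5 member changes that passed kept their direction under all 18 alternatives each, in 72 of 90 cases still past the threshold and in 18 not. The arrays of the groups compared did not overlap for these 5, so leaving out arrays could not turn the sign. Several other settings leave the difference unchanged and alter only its spread or the adjustment. The constant direction is therefore no test of these changes. Of 617 alternatives of changes that had not passed, 10 passed and 23 had the other sign; the cause was not tested. With JMJD3 in culture the count of members called was 0 without background correction, with a normexp offset of 50, without the filter on dim probes and with every probe tested, and 2 with only the groups compared, with array weights, and without both arrays farthest apart (the alternative chosen after seeing the data); leaving out 1 array gave 0 to 2. In tumor-dissociated cells it was 0 with only the groups compared and without both arrays farthest apart, and 0 to 1 without 1 array. Between origins it was 1 to 2 in vector cells without 1 array; in JMJD3 cells it was 2 with an offset of 50 and 0 to 3 without 1 array. For the difference of effects it was 0 to 1 without 1 array.

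Replicates carry the numbers 1 and 2 in the labels, which do not say that a number marks a shared culture or day. Whether the numbers pair the arrays is therefore not known, and the main fit did not pair them. Same-numbered deviations correlated at 0.37 and 0.10 for JMJD3 in culture and in tumor-dissociated cells. Between origins they correlated at 0.072 and 0.066 in vector and JMJD3 cells, with 2 pairs each. With the replicate block 1 member, TFPI, passed for the difference of effects (log2 difference -1.45, limma adjusted p = 0.0406), and no other count of members moved.

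Among the other coagulation and plasminogen genes, the 3 calls with JMJD3 in tumor-dissociated cells became 0 without background correction and with only the groups compared, 1 with array weights and without both arrays farthest apart, and 0 to 2 without 1 array. Between origins in vector cells the count was 7 with only the groups compared and with array weights, of which 6 were higher and LRP8 was lower. In JMJD3 cells the count was 0 without background correction. Leaving out 1 array moved the origin counts too. For the difference of effects it was 0 to 2 without 1 array.

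Without both arrays farthest apart, the log2 difference with JMJD3 in tumor-dissociated cells was 0.24 for F3 and -0.087 for PROCR, the origin difference of PLAT in vector cells was 0.16, and the difference of effects was -0.035 for PLAU and -0.21 for TFPI2. Leaving out 1 array at a time gave other signs for these log2 differences. For F3 they ranged over -0.13 to 0.71 with JMJD3 in culture, -0.39 to 0.29 in tumor-dissociated cells, -0.43 to 0.41 and -0.72 to 0.017 between origins in vector and JMJD3 cells, and -0.76 to 0.082 for the difference of effects. For PLAT the ranges were -0.41 to 0.023 with JMJD3 in culture and -0.95 to 0.16 between origins in vector cells; for PLAU -0.063 to 0.61 and for PLAUR -0.11 to 0.38 for the difference of effects, and for PLAUR -0.096 to 0.33 with JMJD3 in culture. For SERPINE2 they were -0.090 to 0.12 with JMJD3 in culture and -0.073 to 0.14 between origins in JMJD3 cells, and for TFPI2 -0.58 to 0.19 between origins in JMJD3 cells. Signals close to background, as for F3, PLAU and THBD, limit what these arrays can show.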
